A study of Mus musculus with 6 samples.

Results

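Calcium handling genes code for the channels, pumps, exchangers, store proteins and regulators that move calcium in and out of the cytosol of a heart muscle cell with every beat. A named list of 48 such genes was looked up by symbol in a table of 15330 genes measured in embryonic mouse hearts, and 47 had a row. Sln, which codes for the atrial pump inhibitor sarcolipin, had no row and is not analysed here.

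In excitation-contraction coupling, calcium that enters through voltage-gated channels of the cell membrane opens ryanodine receptors, which release stored calcium from the sarcoplasmic reticulum onto the contractile filaments. The muscle relaxes when SERCA pumps return calcium to the store and the sodium-calcium exchanger removes it from the cell. In the early embryonic heart the store is still small, calcium entry across the membrane has a large part in each beat, and IP3 receptors also release stored calcium.

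Hearts were dissected from mouse embryos of matched stage at E9.5, that is day 9.5 of gestation, and their RNA was sequenced. There were 2 groups of 3 libraries: H2-URI d/d hearts, in which both copies of a 373 kb interval upstream of Hand2 were removed with CRISPR-Cas9, and wild-type hearts. Hand2 codes for a helix-loop-helix transcription factor needed for heart and limb development, and the comparison asked which heart transcripts differ without the interval. The allele is a deletion of genomic DNA, and the labels name no driver that limits it to a cell type. Both groups had 2 female and 1 male library by their labels, and a single batch, number 1, held all 6. The labels do not give the strain, nor whether a library is 1 heart or a pool, so p-values measure only the spread between these libraries.

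The files and the labels disagreed on 4 of the 6 libraries, whose files were recorded under the other group. Columns were matched to samples through the code that a sample's title and a column's name share, and every value below rests on that match. Under the recorded assignment limma called 0 of 15330 genes, and 414 had an unadjusted p under 0.05. The libraries held 26016264 to 30117718 reads in H2-URI d/d hearts and 25583210 to 32043595 reads in wild-type hearts. Hand2 had 1025, 1158 and 1163 normalized counts in H2-URI d/d hearts, against 3911, 3789 and 4407 in wild-type hearts. All 12 cardiomyocyte markers were measured, with summed levels of 997748 to 1095776 normalized counts in H2-URI d/d and 951476 to 1093568 in wild-type libraries. None of them passed in limma. DESeq2, which called 7.89% of all genes, called Myh6 (log2 fold change 0.30, adjusted p = 0.000944) and Ttn (0.38, 0.0448) higher and Tnni1 (−0.38, 0.0251) lower. Groups did not overlap for 4 of the 12, all higher in H2-URI d/d hearts (33.3%, beside 27.4% of all genes). Summed haemoglobin and other red cell markers (7 of 8 measured) spanned 84673 to 451164 normalized counts in H2-URI d/d and 119433 to 348559 in wild-type libraries. The epicardial sum (5 of 6 measured) was 2063 to 3380 in H2-URI d/d and 1354 to 2255 in wild-type libraries, with no marker past the threshold in limma. Of the 5 log2 fold changes 4 were positive and 1 negative. Groups did not overlap for 2, Tbx18 and Tcf21, both higher (40%, beside 27.4% of all genes). DESeq2 called Tcf21 higher (log2 fold change 0.92, adjusted p = 0.000665). The mesenchyme sum (7 of 7 measured) was 2321 to 3373 in H2-URI d/d and 2878 to 4179 in wild-type libraries, with Twist1 and Msx1 past the threshold and lower. The endothelial sum (8 of 8 measured) was 21682 to 22471 in H2-URI d/d and 20999 to 22410 in wild-type libraries, with Kdr past the threshold and higher (log2 fold change 0.33, limma adjusted p = 0.0317) and Tek past it and lower (−0.35, 0.0178). The foregut sum (5 of 6 measured) was 484 to 713 in H2-URI d/d and 272 to 1210 in wild-type libraries, and the sum of neural crest and neuron markers (2 of 6 measured) was 161 to 190 in H2-URI d/d and 182 to 201 in wild-type libraries, with no marker of either past the threshold. None of the 5 skeletal muscle markers had a row. The part of these other cell types in the results below was not tested.

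Of the 47 calcium genes, 4 passed the threshold of an adjusted p under 0.05 in limma, 2 higher and 2 lower in H2-URI d/d hearts. Casq2, the cardiac calcium store protein calsequestrin, and Cacna2d2, an auxiliary subunit of voltage-gated calcium channels, rose. Itpr2, a receptor channel that releases stored calcium in response to IP3, and Calm2, one of the genes for the calcium sensor calmodulin, fell. These 4 were 8.51% of the calcium genes, beside 3.05% of all 15330 genes (1.55% higher and 1.5% lower). On the recovered reads edgeR also called 2 higher and 2 lower, beside 1.75% and 1.51% of all genes (3.26% in all), and DESeq2 called 3 and 3, beside 3.73% and 4.16% (7.89% in all). The genes at the centre of the beat, Ryr2, Atp2a2, Pln, Slc8a1 and Cacna1c, did not pass in limma. In DESeq2 Ryr2 passed as higher (adjusted p = 0.00355) and the others did not pass. In RNA of bulk hearts, fewer cells of a type and less RNA per cell cannot be told apart.

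The 4 shifts were small beside the levels: Casq2 in H2-URI d/d hearts was 1.55 times its wild-type mean, Cacna2d2 1.37 times, Calm2 0.796 times and Itpr2 0.695 times. The log2 fold changes of all 47 genes lay between −0.52 and 0.64. They were positive for 29 genes and negative for 18, with a median of 0.079, beside a median of −0.0073 over all genes, of which 48.4% were positive. Groups did not overlap for 18 of the 47 genes (38.3%, beside 27.4% of all genes): 15 lay higher in H2-URI d/d (12.9% of all genes do) and 3 lower (14.5% of all genes do). An unadjusted p under 0.05 was reached by 14 calcium genes, 11 of them higher and 3 lower, beside 21.4% of all genes. Over all genes 237 were called higher and 230 lower, a split that became 393 and 209 with libraries rescaled to equal totals without haemoglobin, 115 and 282 with equal sums of cardiomyocyte markers, and 186 and 297 once a trend in length and GC content was removed.

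Over the 20 alternatives the lowest adjusted p was 0.00210 for Casq2, 2.05e-06 for Cacna2d2, 0.00596 for Itpr2, 0.000209 for Calm2, 0.00355 for Ryr2 and 0.0184 for Calr, each in DESeq2, and 0.0460 for Cacnb3 in limma. The highest was 1.00 in limma for each of them, under the recorded file assignment.

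**Figure D1:**
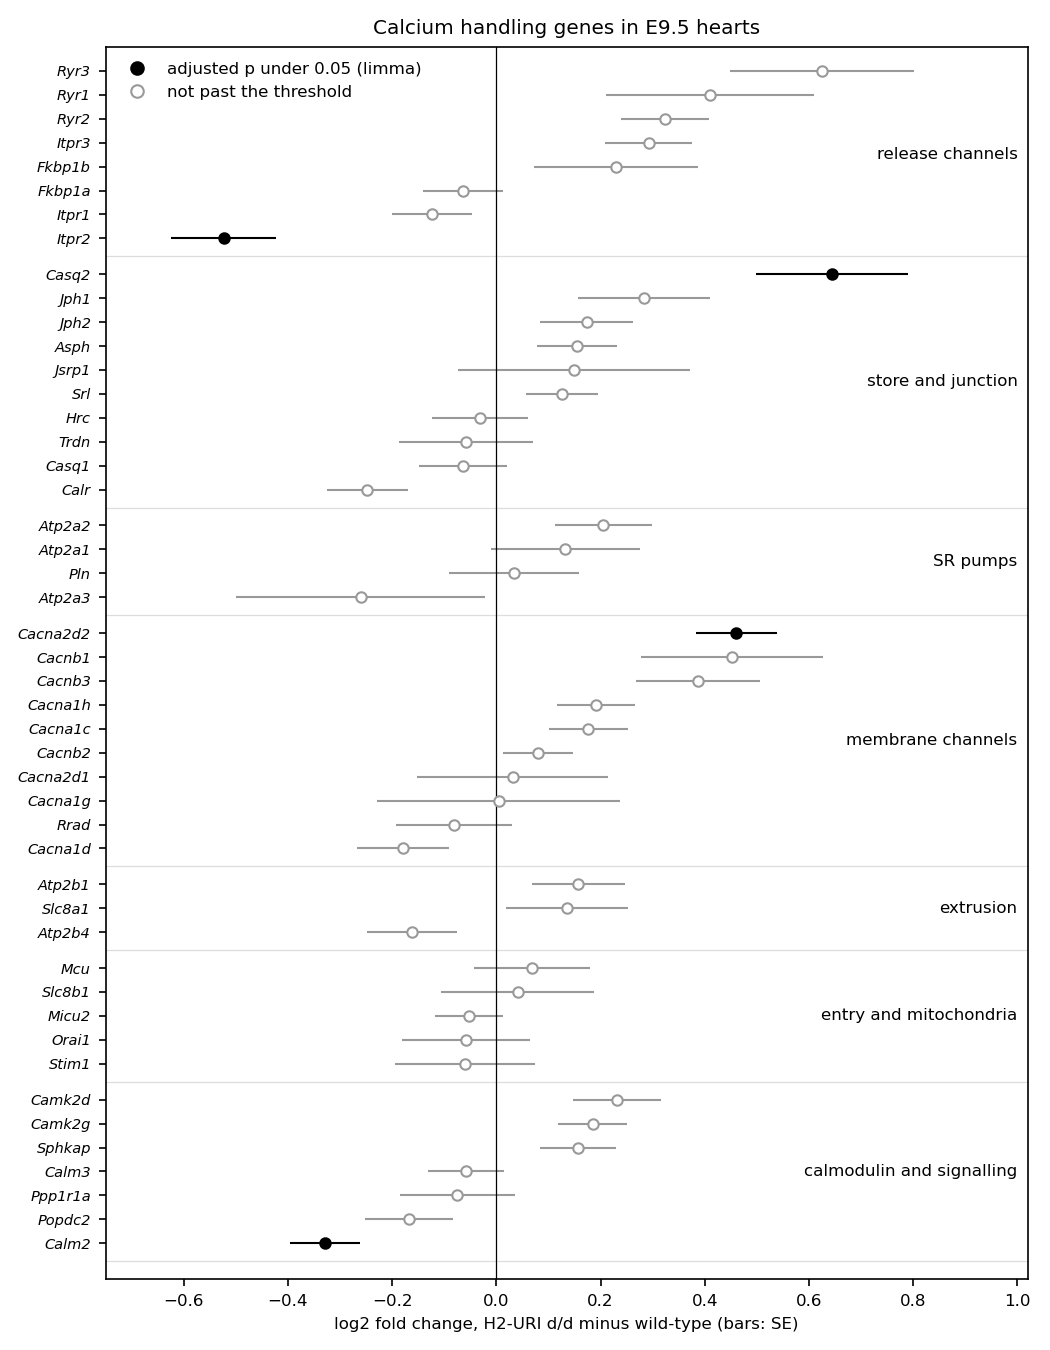
Log2 fold change of each of the 47 measured calcium genes, H2-URI d/d minus wild-type, on log2(normalized count + 1), grouped by role; bars are standard errors from limma with 3 libraries a group. Filled points mark the 4 genes with an adjusted p under 0.05, and the values run between −0.52 for Itpr2 and 0.64 for Casq2.

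The plot of fold changes by role shows filled points in 4 different roles: release, store, membrane channels and signalling. No pump, extrusion, entry or mitochondrial gene is among them.

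The promoters of 3 of these 4 genes were in the RefSeq table for GRCm38.p6, and the 250 bases upstream of the start are shown because Hand2 belongs to a family that binds E-boxes, and Casq2 is the called gene with the highest fold change. They run 5′ to 3′ on the strand of the gene, Casq2 at chr3:102086165-102086414 on the plus strand, Cacna2d2 at chr9:107399630-107399879 on the plus strand and Itpr2 at chr6:146502224-146502473 on the minus strand. Capitals mark each E-box (CANNTG, which reads the same on both strands) and a match to the MEF2 consensus, searched on both strands.
Casq2: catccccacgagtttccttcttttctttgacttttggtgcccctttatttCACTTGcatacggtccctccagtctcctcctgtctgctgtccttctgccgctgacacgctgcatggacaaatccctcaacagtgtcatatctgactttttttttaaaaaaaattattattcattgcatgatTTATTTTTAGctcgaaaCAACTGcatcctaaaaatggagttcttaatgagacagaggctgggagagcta
Cacna2d2: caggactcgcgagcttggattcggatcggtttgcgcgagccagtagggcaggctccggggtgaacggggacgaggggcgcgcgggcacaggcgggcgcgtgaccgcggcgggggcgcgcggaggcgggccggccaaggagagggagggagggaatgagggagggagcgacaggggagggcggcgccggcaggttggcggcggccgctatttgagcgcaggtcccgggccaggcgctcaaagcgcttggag
Itpr2: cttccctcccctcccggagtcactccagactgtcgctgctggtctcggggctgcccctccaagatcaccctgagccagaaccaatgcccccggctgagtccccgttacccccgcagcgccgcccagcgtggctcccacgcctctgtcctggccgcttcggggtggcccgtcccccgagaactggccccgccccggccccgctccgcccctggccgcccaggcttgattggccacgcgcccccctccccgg
The Casq2 stretch held 2 E-boxes and 1 match to the MEF2 consensus, with a GC content of 41.6%. The Cacna2d2 and Itpr2 stretches held neither and had a GC content of 74.4% each. Calm2 had no entry. An E-box was present in 20 of the 32 matched calcium gene promoters (62.5%) and in 66.0% of all 27025 promoters of this length. The form CAGATG or its reverse complement was in 2 calcium promoters (6.25%) and in 14.5% of all, and GATAA on either strand, which can overlap an E-box, was in 8 (25%) and in 23.0% of all. The MEF2 consensus, searched for after the Casq2 sequence had been read, was in 1 of the 32 and in 3.01% of all promoters. The mean GC content was 62.0% in the 32 calcium promoters and 53% in all promoters, and its part in these shares was not tested. The rest of the 47 calcium genes had no matched promoter. A match describes letters only.

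Release channels open the store. Ryr2, the ryanodine receptor of heart muscle, had 19238, 19465 and 18571 normalized counts in H2-URI d/d hearts, against 13596, 15785 and 16525 in wild-type hearts. Every H2-URI d/d library lay above every wild-type library, with a log2 fold change of 0.32 (SE 0.08, limma adjusted p = 0.0701), short of the threshold. It passed in DESeq2 (adjusted p = 0.00355), in limma after quantile normalization (0.0311) and with equal totals without haemoglobin (0.0421). With the length and GC trend removed the log2 fold change of Ryr2 was 0.17 (limma adjusted p = 0.256), and with equal sums of cardiomyocyte markers it was 0.28 (0.184). Fkbp1a, a small protein bound to ryanodine receptors, had 19544, 17943 and 17880 normalized counts in H2-URI d/d and 18504, 18641 and 20738 in wild-type libraries, which overlap (log2 fold change −0.06). Per kb of transcript it was the highest of the release group at 9177 ± 469 normalized counts in H2-URI d/d and 9594 ± 623 in wild-type hearts, and Ryr2 followed at 1135 ± 27.6 in H2-URI d/d and 910 ± 90.6 in wild-type hearts (SD, n = 3 each). Its relative Fkbp1b, which binds the heart receptor, stood at 139 ± 19.5 normalized counts in H2-URI d/d and 118 ± 12.4 in wild-type hearts (log2 fold change 0.23). The other ryanodine receptors were rare. Ryr3 had 117, 103 and 96.1 normalized counts in H2-URI d/d libraries, against 60.2, 64.9 and 79.6 in wild-type libraries (log2 fold change 0.63, limma adjusted p = 0.0854). Ryr1, the skeletal muscle form, had 90.8, 78.0 and 78.8 in H2-URI d/d and 63.6, 74.7 and 49.4 in wild-type libraries (log2 fold change 0.41, limma adjusted p = 0.270). Groups did not overlap for either gene, and neither passed. With the length and GC trend removed the log2 fold changes were 0.49 for Ryr3 and 0.17 for Ryr1.

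IP3 receptors answer hormone and growth factor signals rather than the action potential. Itpr2 had 224, 222 and 245 normalized counts in H2-URI d/d hearts, against 338, 325 and 330 in wild-type hearts. The wild-type values were tight and all well above the H2-URI d/d values. The means were 230 ± 12.9 in H2-URI d/d and 331 ± 6.80 in wild-type hearts (SD, n = 3 each), with a log2 fold change of −0.52 (SE 0.10, 95% interval −0.75 to −0.30, limma adjusted p = 0.0263). Without a trend in length and GC content the log2 fold change of Itpr2 was −0.64 (limma adjusted p = 0.00956). The call was lost without H2-URI d/d library 1, 2 or 3 (adjusted p = 0.118, 0.130 and 0.0618, limma) and without wild-type library 3 (0.0920). Itpr1, by far the most abundant receptor, had 3593, 3728 and 3366 normalized counts in H2-URI d/d and 3925, 3541 and 4193 in wild-type hearts, with a log2 fold change of −0.12 (limma adjusted p = 0.389). Itpr3 lay the other way, at 632, 682 and 613 in H2-URI d/d and 538, 539 and 496 in wild-type libraries, which do not overlap, with a log2 fold change of 0.29 (limma adjusted p = 0.0877), which was 0.11 (0.413) with the length and GC trend removed. Per kb, Itpr2 made up 4.22, 4.02 and 4.88% of the 3 receptors in H2-URI d/d and 5.95, 6.23 and 5.57% in wild-type hearts. The share of Itpr3 was 15.5, 16.0 and 15.9% in H2-URI d/d and 12.3, 13.4 and 10.9% in wild-type hearts. The makeup of the family thus held more Itpr3 and less Itpr2 in each H2-URI d/d library than in any wild-type library.

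**Figure D2:**
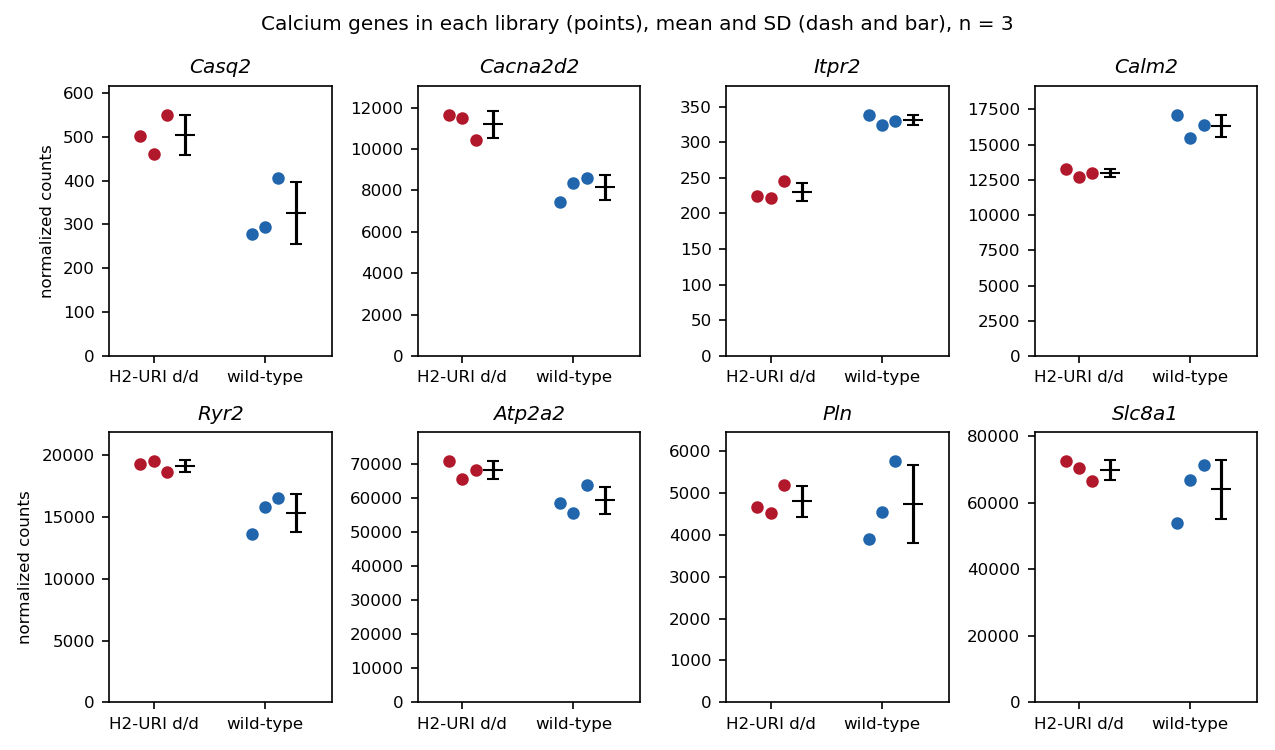
Normalized counts of 8 calcium genes in each library (points), with mean and SD (dash and bar), H2-URI d/d left and wild-type right, n = 3 each. The upper row shows the 4 genes past the threshold, whose groups do not overlap; in the lower row Pln and Slc8a1 overlap, and Ryr2 and Atp2a2 do not.

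The store and its junction with the membrane hold calcium-binding proteins and tethers. Casq2 had 501, 461 and 550 normalized counts in H2-URI d/d hearts, against 277, 294 and 406 in wild-type hearts. The lowest H2-URI d/d library stood above the highest wild-type library, which was itself well apart from the other wild-type values. Means were 504 ± 44.6 in H2-URI d/d and 326 ± 70.2 in wild-type hearts (SD, n = 3 each) and the log2 fold change was 0.64 (SE 0.15, 95% interval 0.32 to 0.97, limma adjusted p = 0.0488). That p lies just under the threshold. In limma the adjusted p of Casq2 was 0.140, 0.130 and 0.168 without H2-URI d/d library 1, 2 and 3, 0.0665 and 0.0624 without wild-type library 1 and 2, and 0.0183 without wild-type library 3. It was 0.0550 after quantile normalization and 0.0506 with equal sums of cardiomyocyte markers. Casq1, the calsequestrin known from skeletal muscle, had 10535, 10159 and 10503 normalized counts in H2-URI d/d and 11294, 9569 and 11870 in wild-type hearts (log2 fold change −0.06, limma adjusted p = 0.711). It was the far more abundant form at this stage: per kb, Casq2 made up 3.32, 3.17 and 3.64% of calsequestrin transcripts in H2-URI d/d and 1.74, 2.18 and 2.41% in wild-type hearts.

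Calr, the calcium-binding chaperone calreticulin, had 25370, 26115 and 24209 normalized counts in H2-URI d/d and 30980, 27964 and 30972 in wild-type hearts. The groups did not overlap, yet the log2 fold change of −0.25 (SE 0.08) did not pass in limma (adjusted p = 0.110) and passed in DESeq2 (0.0184). Per kb its mean over all 6 libraries was the highest of the 47 genes, at 11553 ± 440 normalized counts in H2-URI d/d and 13723 ± 796 in wild-type hearts (SD, n = 3 each), and Casq1 stood second in the store group at 5630 ± 113 in H2-URI d/d and 5907 ± 648 in wild-type hearts. The other store genes did not pass. Their log2 fold changes were 0.13 for the calcium-binding sarcalumenin gene Srl, −0.03 for Hrc, whose product binds calcium within the store, −0.06 for triadin (Trdn), 0.15 for Asph, which also codes for junctin, and 0.15 for Jsrp1. Junctophilins tie the store to the cell membrane. Jph2, the cardiac form, had a log2 fold change of 0.17 (−0.010 with the length and GC trend removed) and made up 97.1 ± 0.544% of junctophilin transcripts per kb in H2-URI d/d and 97.3 ± 0.423% in wild-type hearts (SD, n = 3 each), and the log2 fold change of Jph1 was 0.28.

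SERCA pumps refill the store, and none of the 4 measured pump genes passed. Atp2a2, the cardiac pump gene, had 70756, 65695 and 68363 normalized counts in H2-URI d/d hearts, against 58428, 55746 and 63701 in wild-type hearts. The H2-URI d/d libraries were all higher, by a log2 fold change of 0.21 (95% interval −0.0037 to 0.41, limma adjusted p = 0.242). Pln, whose product phospholamban restrains the pump, had 4669, 4510 and 5195 normalized counts in H2-URI d/d and 3896, 4549 and 5746 in wild-type hearts. These overlap fully, with a log2 fold change of 0.03 (95% interval −0.25 to 0.31, limma). Per kb these were the highest of the group, at 12032 ± 446 normalized counts for Atp2a2 in H2-URI d/d against 10450 ± 713 in wild-type hearts, and at 2053 ± 154 for Pln in H2-URI d/d against 2027 ± 402 in wild-type hearts (SD, n = 3 each). The ratio of Pln to Atp2a2 counts was 6.60, 6.86 and 7.60% in H2-URI d/d and 6.67, 8.16 and 9.02% in wild-type hearts, a log2 difference of −0.17 (exact two-sided permutation test, p = 0.3). The ratio of Casq2 to Ryr2 counts was 2.61, 2.37 and 2.96% in H2-URI d/d and 2.04, 1.87 and 2.46% in wild-type hearts, a log2 difference of 0.32 (exact two-sided permutation test, p = 0.2). With 3 libraries a group the smallest p is 0.1. The remaining pumps were minor: Atp2a1 had a log2 fold change of 0.13 and Atp2a3 one of −0.26, and Atp2a2 made up 98.6 ± 0.136% of SERCA transcripts per kb in H2-URI d/d and 98.5 ± 0.227% in wild-type hearts (SD, n = 3 each).

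**Figure D3:**
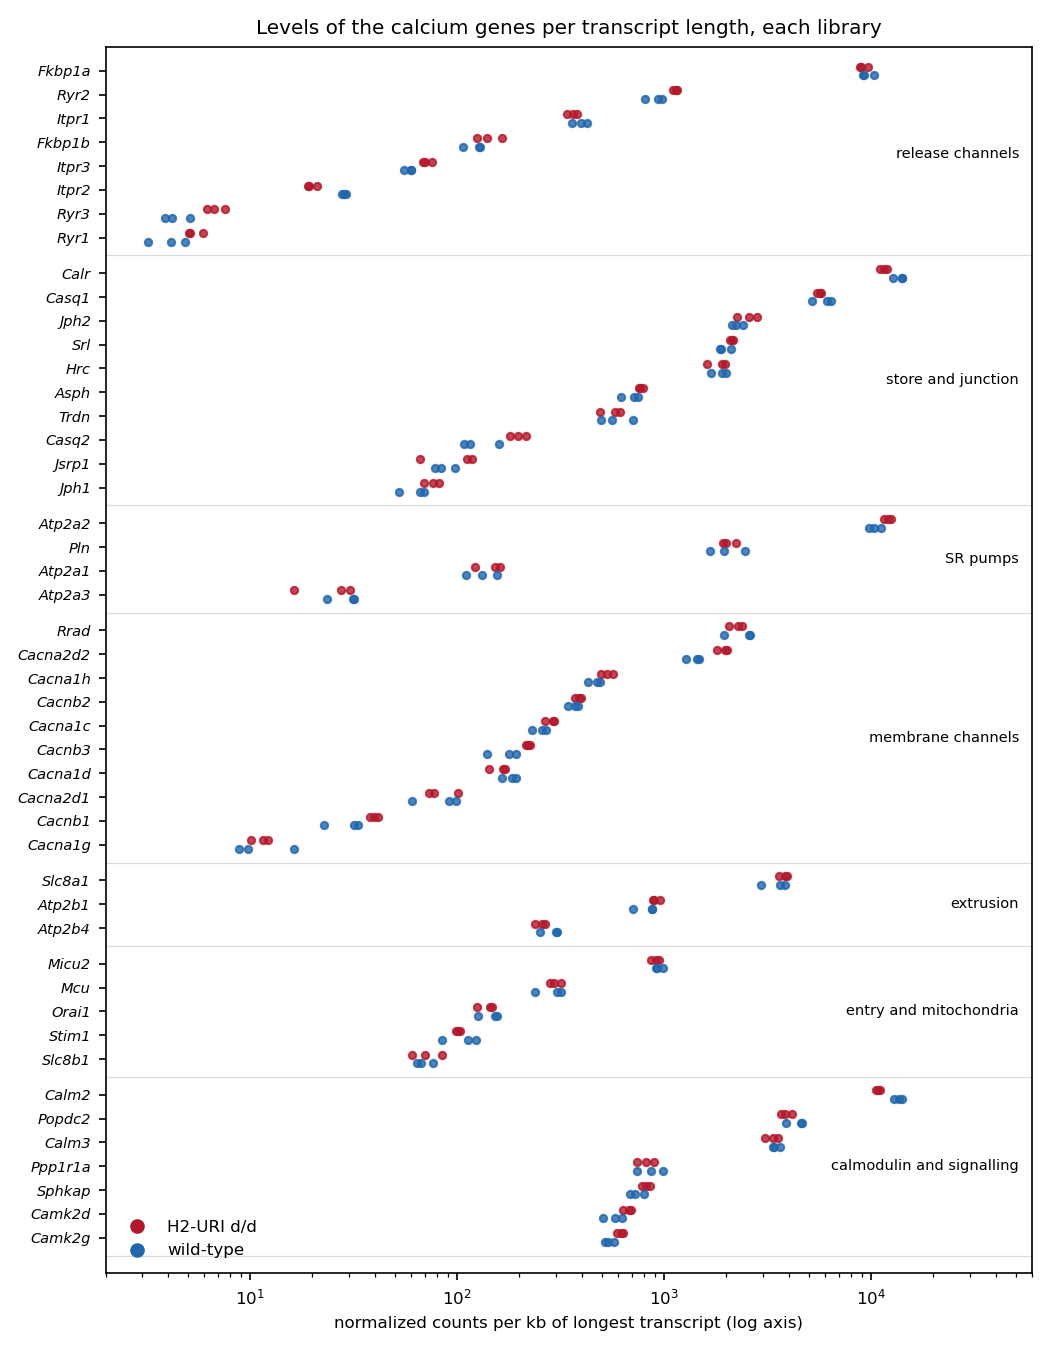
Level of each of the 47 calcium genes as normalized counts per kb of its longest transcript (log axis), 1 point a library, 3 for H2-URI d/d above 3 for wild-type hearts. Calr, Calm2 and Atp2a2 are the highest and Ryr1 and Ryr3 the lowest, and the order of the levels spans a far wider range than the differences between groups.

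The plot of levels per kb sets the differences beside the abundance: a called gene can be among the most abundant, as Calm2 is, or among the rare ones, as Itpr2 is, at 19.7 ± 1.11 normalized counts per kb in H2-URI d/d and 28.4 ± 0.582 in wild-type hearts (SD, n = 3 each).

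Among membrane channels, the pore-forming subunits set the current and the auxiliary subunits its traffic and gating. Cacna2d2 had 11650, 11480 and 10453 normalized counts in H2-URI d/d hearts, against 7452, 8378 and 8596 in wild-type hearts. There was a clear gap between the groups. The means were 11194 ± 648 in H2-URI d/d and 8142 ± 608 in wild-type hearts (SD, n = 3 each) and the log2 fold change was 0.46 (SE 0.08, 95% interval 0.29 to 0.63, limma adjusted p = 0.0163), the lowest adjusted p among the 47 genes. Without H2-URI d/d library 1 or 2 the adjusted p of Cacna2d2 was 0.0893 and 0.0967 in limma, and with the length and GC trend removed its log2 fold change was 0.34 (adjusted p = 0.0568). Cacna2d1, the other gene for this subunit in the named list, had 546, 578 and 751 normalized counts in H2-URI d/d and 448, 731 and 676 in wild-type hearts (log2 fold change 0.03). Per kb, Cacna2d2 made up 95.8 ± 0.964% of this pair in H2-URI d/d and 94.4 ± 0.968% in wild-type hearts (SD, n = 3 each). Cacna2d3, measured in the wider pathway list, is left out of that share. It had 35.9, 39.9 and 35.6 normalized counts in H2-URI d/d and 35.2, 41.8 and 19.2 in wild-type libraries. Rrad, an inhibitor of L-type channels and per kb the highest of the group at 2238 ± 169 normalized counts in H2-URI d/d and 2383 ± 372 in wild-type hearts, had a log2 fold change of −0.08. Its counts were 3745, 3610 and 3231 in H2-URI d/d and 4113, 3081 and 4078 in wild-type libraries, and these overlap. Cacna2d2 followed with 1928 ± 112 in H2-URI d/d and 1402 ± 105 in wild-type hearts per kb (SD, n = 3 each).

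Cacna1c, the main L-type pore of heart muscle, had a log2 fold change of 0.18 (limma adjusted p = 0.218; 0.043 with the length and GC trend removed) and Cacna1d, a pore known from pacemaker cells, one of −0.18 (adjusted p = 0.279; −0.27 with it removed). The H2-URI d/d and wild-type ranges overlapped for both. Of the L-type pores measured (Cacna1c, Cacna1d and Cacna1s), Cacna1d made up 32.5, 33.2 and 30.6% per kb in H2-URI d/d and 39.0, 39.1 and 38.5% in wild-type hearts, which do not overlap. The T-type pores open at low voltage. Cacna1h had 4352, 4682 and 4075 normalized counts in H2-URI d/d and 3543, 4019 and 3918 in wild-type hearts (log2 fold change 0.19, limma adjusted p = 0.183, and −0.013 with the length and GC trend removed), and Cacna1g had 84.4, 102 and 97.2 in H2-URI d/d and 81.7, 137 and 74.1 in wild-type hearts. Cacna1h counts were 51.5, 45.8 and 41.9 times those of Cacna1g in H2-URI d/d and 43.3, 29.3 and 52.9 times in wild-type libraries, a log2 difference of 0.19 (exact two-sided permutation test, p = 0.7). The β subunits escort the pore to the membrane: Cacnb3 had 600, 617 and 591 normalized counts in H2-URI d/d and 527, 487 and 381 in wild-type hearts (log2 fold change 0.39, limma adjusted p = 0.105), and passed without wild-type library 1 (0.0460). With the trend removed its log2 fold change was 0.25. Cacnb1 had a log2 fold change of 0.45 (limma adjusted p = 0.176) and Cacnb2, the most abundant of the β genes per kb, one of 0.08.

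Extrusion removes calcium across the membrane. Slc8a1, the sodium-calcium exchanger, which the mouse embryo needs for a heartbeat, had 72470, 70614 and 66697 normalized counts in H2-URI d/d and 54037, 66863 and 71256 in wild-type hearts. The groups overlap, with a log2 fold change of 0.14 (95% interval −0.13 to 0.40, limma), which was −0.0054 with the length and GC trend removed. Per kb it stood at 3787 ± 160 in H2-URI d/d and 3469 ± 485 in wild-type hearts, and the plasma membrane pump gene Atp2b1 at 909 ± 37.0 in H2-URI d/d and 819 ± 97.3 in wild-type hearts (SD, n = 3 each). Atp2b1 had 6354, 6309 and 6786 normalized counts in H2-URI d/d and 5039, 6264 and 6215 in wild-type hearts, which do not overlap, with a log2 fold change of 0.16. For Atp2b4 the log2 fold change was −0.16, and its share of these pump transcripts per kb was 21.1, 22.5 and 21.9% in H2-URI d/d and 26.2, 25.7 and 25.6% in wild-type hearts. No extrusion gene passed.

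The 5 genes of store-operated entry and of mitochondria in the named list had log2 fold changes close to 0, and none passed. Micu2, a gatekeeper of the mitochondrial uniporter, had 2139, 2021 and 2211 normalized counts in H2-URI d/d and 2154, 2140 and 2311 in wild-type hearts. Mcu, the uniporter pore, had 916, 811 and 846 in H2-URI d/d and 684, 874 and 911 in wild-type hearts. Per kb these were the highest of the group, Micu2 at 912 ± 41.1 in H2-URI d/d against 945 ± 40.6 in wild-type hearts and Mcu at 299 ± 18.7 in H2-URI d/d against 287 ± 42.2 in wild-type hearts (SD, n = 3 each). The groups overlapped for both, and the 5 log2 fold changes lay between −0.06 for Stim1, the store sensor, and 0.07 for Mcu, with Orai1, the pore it opens, at −0.06 and the mitochondrial exchanger Slc8b1 at 0.04. Of 13 further genes of this role in the wider pathway list, none passed in limma. Groups did not overlap for 4, all lower (30.8%, beside 27.4% of all genes, 14.5% lower). Vdac3 (log2 fold change −0.24, limma adjusted p = 0.104) and Stim2 (−0.24, 0.115) had the lowest p. Vdac3 passed in DESeq2 (adjusted p = 0.0459).

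Calmodulin senses calcium and passes the signal on. Calm2 had 13295, 12687 and 13012 normalized counts in H2-URI d/d hearts, against 17113, 15509 and 16390 in wild-type hearts. The H2-URI d/d libraries were close to each other and all below the wild-type libraries. The means were 12998 ± 304 in H2-URI d/d and 16337 ± 803 in wild-type hearts (SD, n = 3 each), with a log2 fold change of −0.33 (SE 0.07, 95% interval −0.48 to −0.18, limma adjusted p = 0.0341). With the length and GC trend removed the log2 fold change of Calm2 was −0.18 (limma adjusted p = 0.131), and the adjusted p was 0.130, 0.170 and 0.133 without H2-URI d/d library 1, 2 and 3, 0.114 without wild-type library 3, 0.0647 with sex as a covariate, 0.0623 after quantile normalization and 0.0522 with equal sums of cardiomyocyte markers. Calm3, which codes for the same protein, had 7683, 8181 and 7018 normalized counts in H2-URI d/d and 8317, 7691 and 7783 in wild-type hearts, with a log2 fold change of −0.06 (limma adjusted p = 0.692). Calm2 made up 64.0, 62.8 and 64.5% of calmodulin transcripts per kb in H2-URI d/d and 66.8, 66.2 and 65.9% in wild-type hearts. Its log2 ratio to Calm3 differed by −0.27, H2-URI d/d minus wild-type, and by −0.054 with the length and GC trend removed.

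Per kb Calm2 was the highest of the signalling genes at 10787 ± 253 normalized counts in H2-URI d/d and 13558 ± 667 in wild-type hearts. Popdc2, a cAMP-binding membrane protein of heart muscle, followed at 3883 ± 235 in H2-URI d/d and 4369 ± 421 in wild-type hearts (SD, n = 3 each), with 8971, 8335 and 7960 normalized counts in H2-URI d/d and 9910, 8426 and 10090 in wild-type libraries. The groups of Popdc2 overlap and its log2 fold change was −0.17. The calmodulin-dependent kinase genes of the named list, Camk2d and Camk2g, lay higher without overlap and did not pass. Camk2d had a log2 fold change of 0.23 (limma adjusted p = 0.156) and Camk2g one of 0.18 (adjusted p = 0.148). In the wider pathway list described below, Camk2a lay lower without overlap (log2 fold change −0.098, limma adjusted p = 0.412). Camk2b, also of that list, overlapped (log2 fold change 0.020). Sphkap, an anchor for protein kinase A, had a log2 fold change of 0.16, and the phosphatase inhibitor gene Ppp1r1a one of −0.07.

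**Figure D4:**
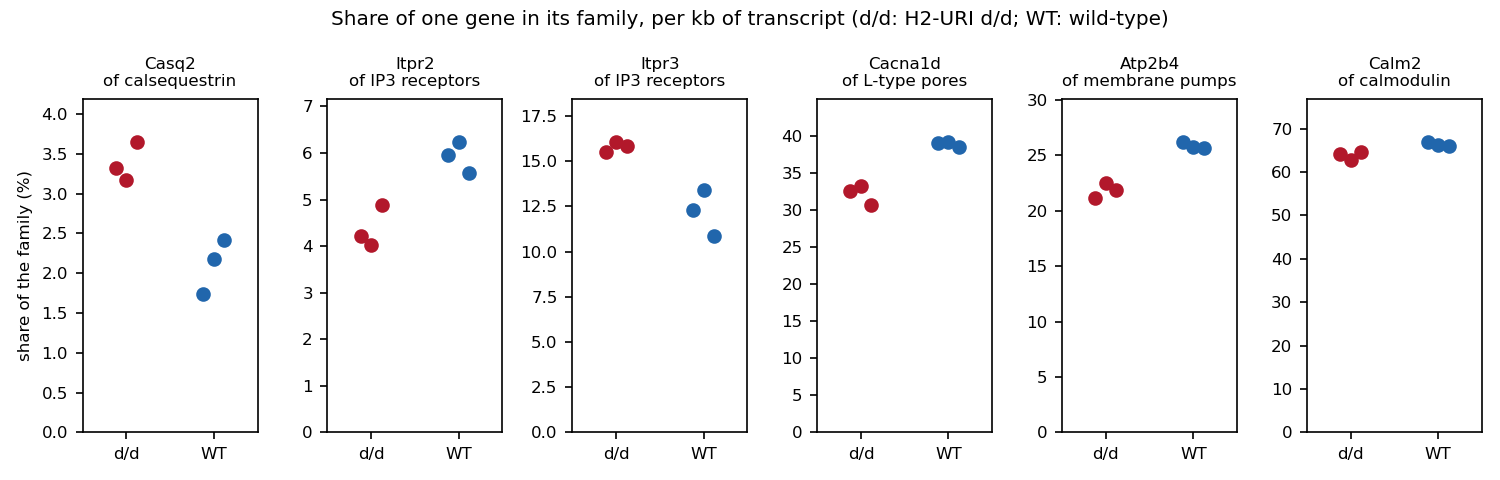
Share of 6 genes in their families, from normalized counts per kb of transcript, in each library (points), H2-URI d/d left and wild-type right, n = 3 each. Groups do not overlap for any of these 6, which were picked from 31 shares: Casq2 (3.17 to 3.64% in H2-URI d/d against 1.74 to 2.41% in wild-type), Itpr2, Itpr3, Cacna1d, Atp2b4 and Calm2.

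The family shares in this plot were chosen after the values were seen and stand as a description with no test. Of 31 shares in 12 families, 17 did not overlap between groups: besides the 6 plotted, these were Ryr2, Ryr3, Itpr1, Casq1, Calm3, Cacna1c, Cacna1s, Cacnb1, Cacnb2, Atp2b1 and Bves. No such count was made for families outside this list, so the 17 have no background share beside them. Shares within a family sum to a whole and so move together, and the 17 are not separate shifts. In the same way the log2 ratio of Casq2 to Casq1 was higher by 0.71 in H2-URI d/d, Itpr2 to Itpr1 differed by −0.40, Itpr3 to Itpr1 by 0.42, Cacna1d to Cacna1c by −0.36 and Atp2b4 to Atp2b1 by −0.32. With the length and GC trend removed these differences were 0.71, −0.42, 0.33, −0.32 and −0.38. A ratio within a library does not depend on how libraries were scaled, and it shows unequal change only. In the families with 1 leading form that form led in both groups: Ryr2 made up 98.9 ± 0.0893% of ryanodine receptor transcripts per kb in H2-URI d/d and 99.1 ± 0.0738% in wild-type hearts (SD, n = 3 each).

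Transcript length had a weak positive correlation with the fold changes, which was not tested. The calcium genes are long, with a median of 4514 bases for the longest transcript, beside 3180 over all genes. The 23 longer of them had a median log2 fold change of 0.16 and the other 24 one of −0.042. Across the 47 genes Pearson's r of the log2 fold change with log2 length was 0.23, beside 0.19 across 14849 genes with a length, and genes share their libraries and are not independent replicates. With a smooth trend in length and GC content removed from each library, r was −0.0087 and the medians were 0.071 and −0.034. The removal takes out length by design, so this r is no test. The sign then turned for 7 of the 47 genes, namely Jph2, Cacna1g, Cacna1h, Cacna2d1, Slc8a1, Micu2 and Slc8b1, none of them called. The median of all 47 became 0.0011, beside −0.023 over all genes.

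**Figure D5:**
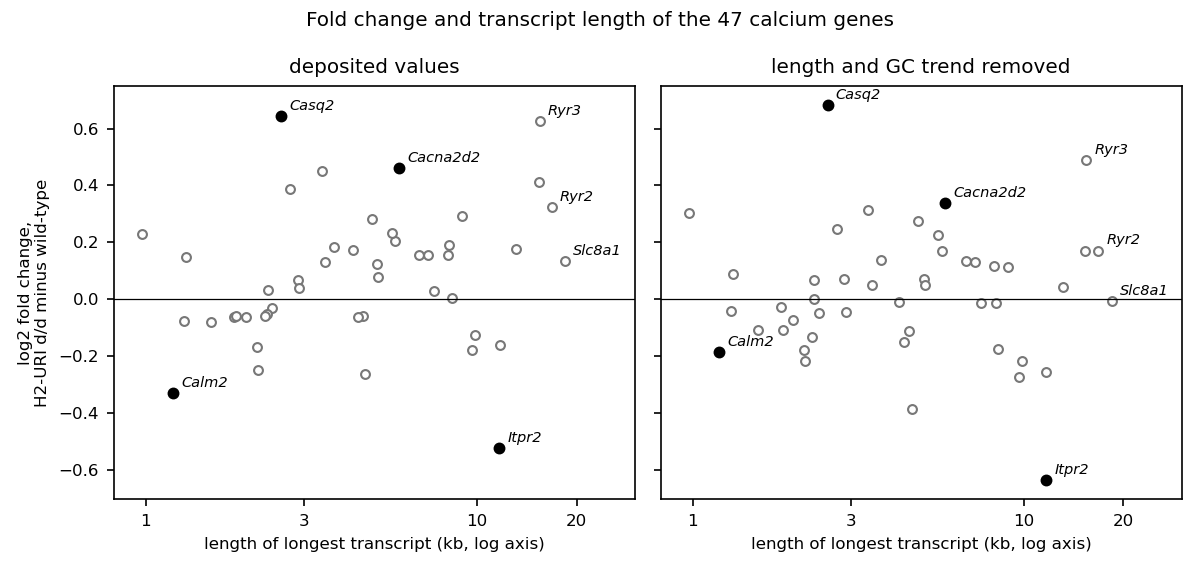
Log2 fold change, H2-URI d/d minus wild-type, of each of the 47 calcium genes against the length of its longest transcript in kb (log axis), filled for the 4 called genes, as measured and with the length and GC trend removed. As measured, the fold changes have a weak positive correlation with length (r = 0.23), which was not tested. After removal r is −0.0087, which the removal itself brings about, and the medians are 0.071 for the 23 longer genes and −0.034 for the other 24. Casq2 and Itpr2 stay at the top and at the bottom.

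Beyond these genes, a wider list of 105 calcium pathway genes had 93 with a row. Of these 2 rose, 2 fell and 89 did not pass, which is 4.30% called, beside 3.05% of all genes. Their median log2 fold change was −0.0042. Groups did not overlap for 13 higher and 18 lower (33.3% of the 93, beside 27.4% of all genes, 12.9% higher and 14.5% lower), and 12 higher and 14 lower had an unadjusted p under 0.05, 26 in all, beside 21.4% of all genes. Cacna1s, the L-type pore known from skeletal muscle, had 332, 315 and 354 normalized counts in H2-URI d/d and 182, 197 and 232 in wild-type hearts. All H2-URI d/d values were higher, with a log2 fold change of 0.71 (SE 0.12, limma adjusted p = 0.0174). Trpc6, a receptor-operated cation channel, had 110, 123 and 147 in H2-URI d/d and 70.4, 64.9 and 54.0 in wild-type hearts, with a log2 fold change of 0.99 (SE 0.18, limma adjusted p = 0.0219). Hspa5, an abundant chaperone of the endoplasmic reticulum, had 31588, 30354 and 28282 in H2-URI d/d and 42237, 36099 and 44819 in wild-type hearts, with a log2 fold change of −0.44 (SE 0.10, limma adjusted p = 0.0444). Bves, a relative of Popdc2, had 2653, 2480 and 2466 in H2-URI d/d and 3074, 3365 and 3769 in wild-type hearts, with a log2 fold change of −0.42 (SE 0.08, limma adjusted p = 0.0263). Groups did not overlap for any of the 4. Each of these calls was lost without single H2-URI d/d libraries 1, 2 or 3, with adjusted p = 0.0783, 0.0770 and 0.0786 for Cacna1s, 0.0560, 0.104 and 0.0955 for Trpc6, 0.128, 0.171 and 0.170 for Hspa5, and 0.0783, 0.130 and 0.113 for Bves (limma). Without wild-type library 3 the adjusted p was 0.0780 for Trpc6, 0.149 for Hspa5 and 0.0781 for Bves. Hspa5 also missed the threshold after quantile normalization (adjusted p = 0.121, limma), with equal medians (0.0506) and with sex as a covariate (0.0784). Over the 20 alternatives the lowest adjusted p was 0.000185 for Cacna1s, 0.00102 for Trpc6, 7.51e-05 for Hspa5 and 0.000302 for Bves, each in DESeq2, and the highest was 1.00 in limma for each, under the recorded file assignment.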

How the data were processed

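RNA-seq libraries of poly(A) RNA, made with a strand-marking kit per the labels' protocols, were sequenced in paired-end mode. Tools named in the submitters' processing notes are STAR 2.7.9a, featureCounts, Subread 2.0.1, DESeq2 1.30.1 and bcl2fastq 2.20, with GRCm39 (mm39) as genome; which annotation, strand setting or filter was used is not given in the sources used here. What the authors deposited is a signal: by its values, gene counts divided by size factors, whole multiples of 1 read, from which reads were recovered. Of the lower values 100% were whole multiples within a tolerance of 0.01, and the highest values were not checked for this. Where strand was ignored, overlapping genes cannot be told apart. A gene's normalized counts were tested with limma 3.58.1 (limma-trend, R 4.3.3) on log2(value + 1), two-sided, for genes with a mean of at least 10, which removed none, with Benjamini-Hochberg adjustment over all 15330 genes and a threshold of 0.05. A pseudocount of 1 shrinks the change of low genes. The test was tried on simulated data. Reads were also tested with edgeR 4.0.16 and DESeq2 1.42.0.

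Every calcium gene past the threshold and the 2 highest per kb in each role group are given in full, others by fold change or range; pathway genes past the threshold are named. Members and lists were chosen with earlier results of these data known. Length and GC content come from GENCODE M21, whose build GRCm38 differs from that of the files, for 96.9% of genes; the trend was removed with natural splines of 4 degrees of freedom. Promoters are from RefSeq. Alternatives covered the pseudocount, filter, scaling, test, sex, a replicate block, the file record, the trend and each library left out.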

Additional observations from a re-analysis of the deposited data

How the results depend on the processing

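The 51 genes followed under 20 alternatives were the 47 calcium genes and the pathway genes called in the main test. Of their 1020 values, 46 lost a call, 5 gained one and 8 had a called gene with the other sign. Of 855 called in neither, 67 changed sign. Pathway genes not called in the main test were not followed, so the 5 leave out any calls they gained. The 8 came under the recorded file assignment, which gave log2 fold changes of 0.24 for Itpr2, −0.35 for Casq2, −0.27 for Cacna2d2, 0.11 for Calm2, −0.31 for Cacna1s, −0.041 for Trpc6, 0.0017 for Hspa5 and 0.013 for Bves, log2 differences of 0.0055 for the Pln to Atp2a2 ratio, −0.14 for the Casq2 to Ryr2 ratio and −0.41 for the Cacna1h to Cacna1g ratio, and 0 calls. The calcium genes called higher (2) became 1 with equal sums of cardiomyocyte markers, an alternative chosen after seeing the data, 1 with the replicate block and 1 with the length and GC trend removed, 3 in DESeq2 and 3 with equal totals without haemoglobin, and 0 to 2 with a library left out. Those called lower (2) became 1 under quantile normalization, equal cardiomyocyte sums, sex as a covariate or the removed trend, 0 with the replicate block, 3 in DESeq2 and 0 to 2 with a library left out. Pathway genes higher (2) became 5 with equal totals without haemoglobin, 6 in DESeq2, 3 with the trend removed, 1 with the replicate block and 0 to 3 with a library left out; those lower (2) became 1 under quantile normalization, equal medians or sex as a covariate, 5 in DESeq2, 0 with the replicate block and 0 to 6 with a library left out. Fits without a library rest on fewer samples; otherwise the cause was not tested. With a library left out the log2 differences ran between −0.29 and −0.07 for Pln to Atp2a2, 0.23 and 0.43 for Casq2 to Ryr2, and −0.046, reversed, and 0.37 for Cacna1h to Cacna1g. The deviations of same-numbered libraries from their group means had correlations of −0.035, −0.12 and −0.14. Such deviations cancel within a group of 3 libraries, so these correlations cannot tell whether the numbers pair libraries. With the replicate block the limma adjusted p was 0.0585 for Cacna2d2, 0.0728 for Itpr2, 0.0892 for Calm2, 0.0669 for Trpc6, 0.0979 for Hspa5 and 0.0703 for Bves, calls lost, and 0.0482 for Casq2 and 0.0394 for Cacna1s, calls kept; it left 96 genes higher and 110 lower of 237 and 230, and DESeq2 called 539 and 600. Calls over all genes ran between 103 and 1161 with a library left out.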
